A study of Solanum lycopersicum with 24 samples.

Results

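*GA2ox3* is a tomato gene for a gibberellin 2-oxidase, an enzyme that inactivates gibberellins. It was represented by 1 of the 67795 probe sets of the Tomato Gene 1.1 ST array (probe set 20249710, gene ID 100134888), the only one whose single symbol is *GA2ox3*; RefSeq lists the gene also as SlGA2ox3. The gene was chosen by measured values, the differences of *res* from WT in control roots, in salt-stressed roots and, in the opposite direction, in control leaves. Its values in those groups are therefore given as a description with no test, and only the comparison of *res* with WT in salt-stressed leaves was tested.

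The arrays measured transcripts of tomato plants grown in hydroponics, in the roots and in leaflets of the first leaf to have expanded fully. The *res* mutant, a chlorotic line that recovers a normal appearance in salt, was set against its WT, the cultivar Moneymaker. Both genotypes were sampled in control and at day 5 of a salt stress that reached 200 mM NaCl, begun when plants were 6 weeks old, so that all groups share the age at the start, the nutrient solution and the growth chamber. The 8 combinations of genotype, tissue and treatment have 3 arrays each, 24 in all, and the RNA of 3 plants was pooled for each array. The control plants were harvested before the salt treatment began, so a difference of salt from control includes the growth made over those 5 days. Values are log2 intensities after RMA normalization, and a difference of 1 is a 2-fold change on that scale. The arrays were made from whole organs, where fewer cells of a type and less RNA per cell cannot be told apart.

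Gibberellins are plant hormones that promote the elongation of stems, leaves and roots, among other processes. Their last steps of synthesis are run by GA20ox and GA3ox enzymes, and GA2ox enzymes remove the active hormones or their precursors. Active gibberellin binds the receptor GID1, which leads to the breakdown of DELLA repressors, and in many plants the genes of synthesis and of inactivation are themselves under feedback from the hormone.

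Some facts of the arrays bear on the values below. The median over all probe sets was 1.93 to 2.05 on the root arrays and 1.84 to 2.17 on the leaf arrays, and the values carry no detection calls. Leaf markers were higher on every leaf array than on every root array for 5 of 5 genes with a probe set (of 9 listed), and 2 of 4 root markers (of 9 listed) were higher on every root array. The other root markers, *FRO1* and *LIN8*, overlapped between the organs. On 2 arrays, which stood apart in this way, many probe sets deviated from the replicates. WT leaves control replicate 1 differed from the mean of its replicates by over 2-fold at 2494 probe sets, against 1054 at most for those arrays, and WT roots salt replicate 3 did so at 1399, against 518 at most. In the 6 other groups the number was 58 to 239 per array.

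*GA2ox3* was highest in roots of *res* in control and lowest in leaves of *res*. In control roots the *res* arrays read 8.33, 8.35 and 8.46, and the WT arrays read 3.69, 3.67 and 3.80. All 3 *res* arrays thus lay far above all 3 WT arrays, by 4.66 on the log2 scale or 25.2-fold. This difference had rank 47 by size among the 67795 probe sets in that comparison. The gene was chosen partly for this difference, so the rank is a description only.

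In salt-stressed roots the *res* arrays read 5.70, 5.75 and 5.68, and the WT arrays read 3.60, 3.66 and 4.11. The groups again did not overlap, with *res* higher by 1.92 or 3.78-fold. The highest WT value came from WT roots salt replicate 3, the array that stood apart, and without it the difference was 2.08. *res* therefore held a higher *GA2ox3* level than WT in both treatments, but the gap was smaller in salt.

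The smaller gap came from the mutant side. From control to salt the mean in *res* roots went from 8.38 ± 0.08 to 5.71 ± 0.03 (SD, n = 3), a difference of -2.67 or 6.36-fold, with rank 194 by size. Both groups entered the choice of the gene, so this rank too is a description only. The mean in WT roots was 3.72 ± 0.07 in control and 3.79 ± 0.28 in salt (SD, n = 3), a difference of 0.07 within overlapping arrays. Without WT roots salt replicate 3 that WT difference was -0.09. The change with salt in *res* minus that in WT was -2.74, and -2.57 without that array.

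In leaves the order of the genotypes was the other way round. In control leaves the WT arrays read 2.84, 3.66 and 3.42, and the *res* arrays read 1.41, 1.44 and 1.30. Every WT array lay above every *res* array, and the *res* mean was lower by 3.80-fold on the RMA scale (a log2 difference of -1.93). The *res* values were below the lower quartile of their own arrays, and without detection calls it cannot be said whether they were above background, so that this fold and others that rest on *res* leaves hold for the RMA values only. The lowest WT value was that of WT leaves control replicate 1, the leaf array that stood apart, and without it the difference was -2.16.

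In salt-stressed leaves, the groups that did not enter the choice of the gene, the WT arrays read 1.76, 1.79 and 1.61 and the *res* arrays 1.30, 1.45 and 1.37. The 3 *res* arrays were below the 3 WT arrays, but the difference was small. It came to -0.34 ± 0.17 (SE; 95% confidence interval -0.71 to 0.02) with an adjusted p of 0.185 in limma, and *GA2ox3* was not called there, a call being an adjusted p below 0.05 along with a change of 2-fold or more. The adjusted p ranged from 0.0363, with only the arrays compared in the fit, to 0.377 over the alternatives, and the change was under 2-fold in all of them. All values of both groups lay below the medians of their own arrays, 1.98 to 2.00 for WT and 1.84 to 1.91 for *res*. A 2-fold fall from such WT levels may not have been measurable, so the missing call does not show equal levels.

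With salt the mean of WT leaves went from 3.31 ± 0.42 to 1.72 ± 0.10 (SD, n = 3), a log2 difference of -1.59 or 3.01-fold with no overlap of arrays. The mean of *res* leaves stayed at 1.38 ± 0.07 in control and 1.37 ± 0.07 in salt (SD, n = 3), and those arrays overlapped. So the larger difference between treatments was found in *res* in roots and in WT in leaves. The *res* leaf values were below the lower quartile of their arrays already in control, so a fall with salt there may not have been measurable. The leaf contrast between genotypes therefore holds for the RMA values only. The change with salt in *res* leaves minus that in WT leaves was 1.58, and 1.82 without WT leaves control replicate 1.

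**Figure D1:**
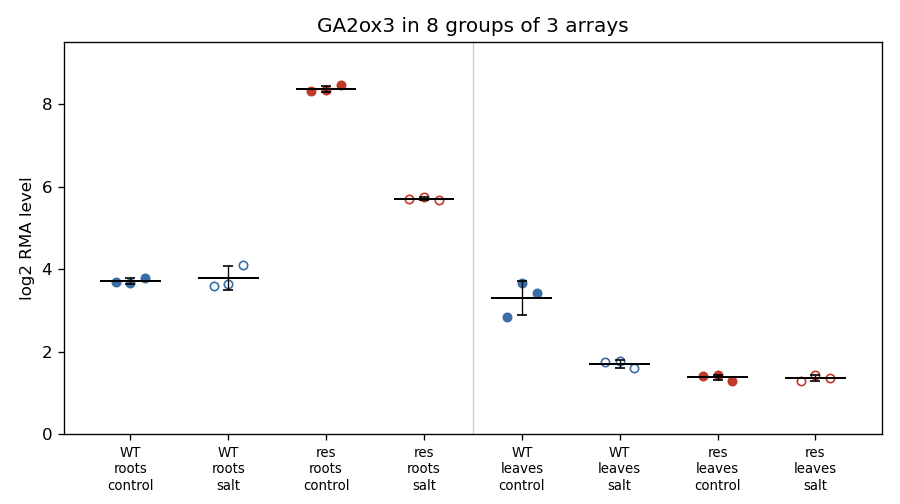
*GA2ox3* level (y axis, log2 RMA level) in the 8 groups (x axis), with 1 point per array, blue for WT and red for *res*, filled for control and open for salt; bars give the mean and SD of 3 arrays. The *res* root arrays stand above all others, at 8.33 to 8.46 in control and 5.68 to 5.75 in salt, and the *res* leaf arrays lie at 1.30 to 1.45.

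Ordered by mean, the groups were *res* roots in control (8.38), *res* roots in salt (5.71), WT roots in salt (3.79), WT roots in control (3.72), WT leaves in control (3.31), WT leaves in salt (1.72), *res* leaves in control (1.38) and *res* leaves in salt (1.37). Neighbours in this order overlapped in only 2 places, between the WT root groups (0.07 apart) and between the *res* leaf groups (0.01 apart). All other neighbouring groups were separate, the closest being *res* leaves in control and WT leaves in salt, 0.34 apart. WT roots and WT leaves in control also lay close, at 0.42 apart, whereas the control groups of *res* differed between roots and leaves by nearly the whole span of the order. The control difference of *res* from WT in leaves minus that in roots was -6.58 (rank 27 by size), and -6.82 without WT leaves control replicate 1. Because the gene was chosen from these differences, the rank is a description only.

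The other gibberellin oxidases that could be recognised by a symbol were 10, in 1 probe set each; oxidases listed only under a LOC number were not searched for. These were *GA2ox1*, *GA2ox2*, *GA2ox4* and *GA2ox5* among the inactivating enzymes, and *GA20ox4*, *20ox-1*, *20ox-2*, *20ox-3*, *3OH-1* and *3OH-2* among those of synthesis, of which the last 5 carry older symbols; RefSeq now names *20ox-1* GA20OX1 and *3OH-1* GA3ox1. No symbol started with GA3ox. Along with CPS, an enzyme of the first committed step of synthesis, the DELLA gene *GAI*, the receptor *GID1*, the signalling regulator *spy*, and *RSI-1* and *gast1*, which belong to the family of gibberellin-stimulated transcripts, they made a list of 16 genes besides *GA2ox3*. Of these, 7 were in the dimmest 1 in 3 of all probe sets by mean level. *GID1*, which RefSeq now names GID1b-1, was the only receptor gene on the list.

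None of the 4 other inactivating enzymes examined differed between groups as much as *GA2ox3* on the RMA scale. All 4 read low. *GA2ox1*, *GA2ox4* and *GA2ox5* lay below the median of their own array on all 24 arrays, and *GA2ox2* had a mean of 1.76. Without detection calls, a difference in their transcripts may not have been measurable, so these values do not show that the change was particular to *GA2ox3*. *GA2ox1*, *GA2ox2* and *GA2ox5* read between 1.00 and 2.19 on all 24 arrays, and none of them was called in any comparison. *GA2ox4* was the nearest in direction. In control roots its *res* arrays read 1.81, 1.82 and 1.65 and its WT arrays 1.15, 1.00 and 1.16, and in salt-stressed roots 1.75, 1.53 and 1.87 against 1.10, 1.11 and 1.34. The *res* arrays were above the WT arrays in both treatments, by 0.66 ± 0.11 (SE, limma adjusted p = 0.000856) and 0.53 ± 0.11 (SE, limma adjusted p = 0.00923). Both differences were under 2-fold, so *GA2ox4* was not a DEG. With all its values below the medians of their arrays, both differences hold for the RMA values only.

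In control roots 3 of the 16 genes were called (18.8%), 1 higher and 2 lower in *res*, where 5.43% of all probe sets were called, 2.96% higher and 2.47% lower. The median log2 difference of the list was -0.01, as was that of all probe sets. The gene that rose was *3OH-1*, an enzyme of the last step of synthesis. Its *res* arrays read 2.90, 2.91 and 2.79 and its WT arrays 1.81, 2.00 and 1.72, a difference of 1.02 ± 0.14 (SE, limma adjusted p = 0.000124) that was just over 2-fold and fell to 0.96, under the threshold, without WT roots control replicate 3. *3OH-1* was in the dimmest 1 in 3 of all probe sets. Its WT values lay below the medians of their arrays, 2.02 to 2.05, so its fold holds for the RMA values only. With that limit, *GA2ox3* and *3OH-1*, for enzymes of opposite action on the hormone, both read higher in control roots of *res*.

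The genes that fell in control roots of *res* were *GAI* and *gast1*. *GAI*, the DELLA repressor known in tomato as PROCERA, read 6.29, 6.19 and 6.29 in *res* and 7.37, 7.18 and 7.31 in WT, a difference of -1.03 ± 0.10 (SE, limma adjusted p = 5.51e-06). It was at the 2-fold limit and no longer called without *res* roots control replicate 2 (-1.0) or WT roots control replicate 1 (-0.99). *gast1* read 2.16, 2.52 and 2.40 in *res* and 4.16, 4.41 and 4.07 in WT, with no overlap. Its difference was -1.86 ± 0.25 (SE, limma adjusted p = 0.000126), or 3.62-fold.

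The other signalling genes moved less in control roots. The receptor gene *GID1* read higher in *res* by 0.73 ± 0.10 (SE, limma adjusted p = 0.000167) and *RSI-1*, a gene induced during lateral root formation, by 0.76 ± 0.12 (SE, limma adjusted p = 0.000592), both under 2-fold. The list therefore held genes with lower and genes with higher levels in *res*.

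In salt-stressed roots 0 of the 16 genes were called by limma, where 2.17% of all probe sets were called (1.18% higher and 0.985% lower), and 8 of the 16 had an unadjusted p under 0.05. A linear model without moderation also called 0, with 9 at an unadjusted p under 0.05. The share of all probe sets at an unadjusted p under 0.05 was not counted. Such counts, here and in the paragraphs below, therefore have no background and cannot be set against the shares called. The list's median log2 difference was 0.11, and that of all probe sets was -0.01. *GAI* differed by -0.27 (limma adjusted p = 0.133) and *3OH-1* by 0.57 (limma adjusted p = 0.0222). *gast1*, lower in control roots of *res*, read 4.77, 4.65 and 4.49 in *res* and 2.94, 3.73 and 4.28 in WT, higher by 0.98 ± 0.25 (SE, limma adjusted p = 0.0282) but under 2-fold. *20ox-3* missed the threshold with 1.16 ± 0.33 (SE, limma adjusted p = 0.0528). Without WT roots salt replicate 3 both *20ox-3* and *gast1* were called, so that the count rose to 2.

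**Figure D2:**
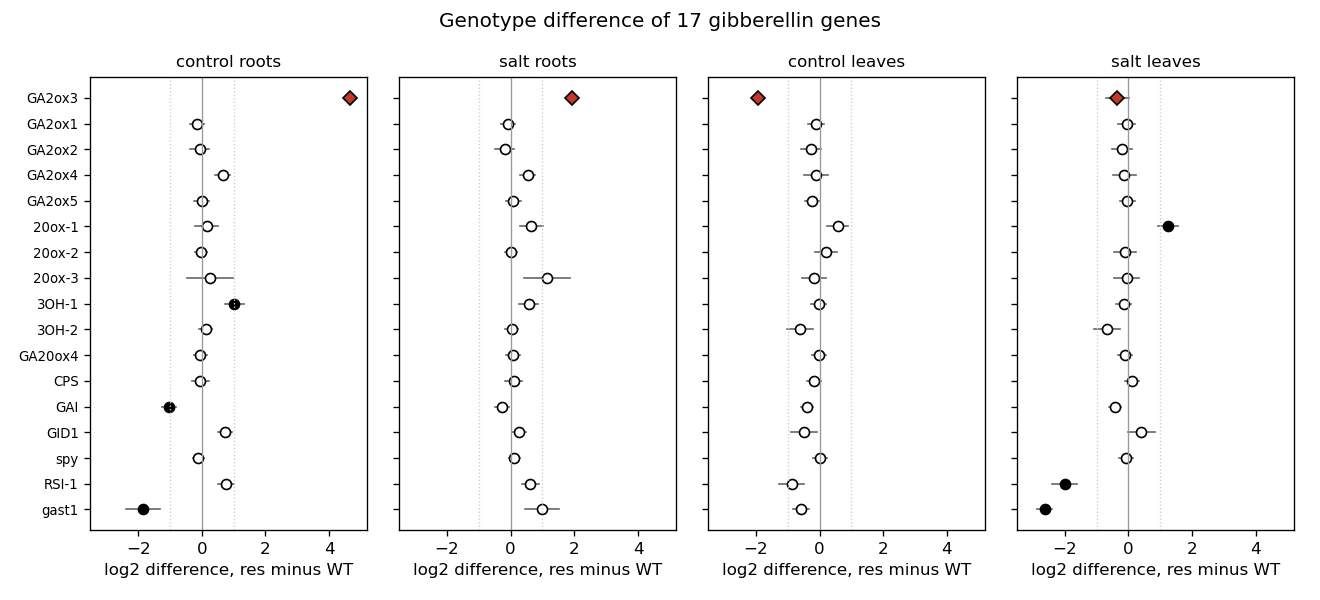
Difference of *res* from WT (x axis, log2 scale) for *GA2ox3* (red diamonds) and the 16 other gibberellin genes (circles, filled where called by limma at an adjusted p under 0.05 and at least 2-fold) in the 4 combinations of treatment and tissue; lines are 95% confidence intervals, drawn for *GA2ox3* only in salt-stressed leaves, where it was tested, and dotted lines mark 2-fold. *GA2ox3* goes from 4.66 in control roots to -1.93 in control leaves, and no other gene of the list lies beyond 3 on either side.

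From control to salt, 2 of the 16 genes rose in *res* roots (12.5%, against 3.11% of all probe sets, 1.58% higher and 1.53% lower) and 0 in WT roots (against 2.72%, 1.5% higher and 1.21% lower), where 7 had an unadjusted p under 0.05 in limma and the linear model without moderation also called 0, with 3 at an unadjusted p under 0.05. List medians were 0.06 in *res* and 0.02 in WT, and the medians of all probe sets were both -0.03. Each genotype's salt and control arrays also enter the comparisons of genotypes, so these values are not independent of them. *gast1* rose in *res* roots by 2.28 ± 0.25 (SE, limma adjusted p = 3.9e-05) or 4.85-fold, while in WT roots it differed by -0.56 (limma adjusted p = 0.207). *20ox-3*, an enzyme of synthesis, read 2.26, 2.21 and 2.51 in *res* roots in control and 4.58, 3.56 and 3.70 in salt, a rise of 1.62 ± 0.33 (SE, limma adjusted p = 0.00572). *3OH-1* read 1.91, 2.08 and 2.27 in salt-stressed *res* roots, a difference from control of -0.78 ± 0.14 (SE, limma adjusted p = 0.00194), under 2-fold.

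The interaction of genotype and salt in roots was called for 1 of the 16 genes (6.25%, against 3.69% of all probe sets, 1.8% higher and 1.89% lower). This was *gast1*, with 2.84 ± 0.35 (SE, limma adjusted p = 0.000163), opposite in sign to the -2.74 of *GA2ox3*. *gast1* was low in *res* roots in control, where *GA2ox3* was high, and higher in salt, where *GA2ox3* was lower. *RSI-1*, of the same family, did not show this pattern. It was higher in control roots of *res* by 0.76, and its root interaction was -0.13 (limma adjusted p = 0.824). In control leaves *GA2ox3* and *gast1* both read lower in *res* than in WT, by -1.93 and -0.58. *GAI* had an interaction of 0.76 ± 0.14 (SE, limma adjusted p = 0.00377), under 2-fold, and that of *20ox-3* was 0.90 ± 0.47 (SE, limma adjusted p = 0.408), called only without WT roots salt replicate 3.

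In control leaves 0 of the 16 genes were called by limma, where 3.92% of all probe sets were called (1.32% higher and 2.6% lower), and 7 had an unadjusted p under 0.05. The linear model without moderation called 0, with 6 at an unadjusted p under 0.05. The list's median was -0.17 and that of all probe sets -0.12. With quantile normalization repeated within tissues, the 893 higher and 1765 lower calls over all probe sets became 1264 and 1334. *RSI-1* differed by -0.88 ± 0.18 (SE, limma adjusted p = 0.00467), under 2-fold, and was called only without WT leaves control replicate 3. Its *res* values lay below the medians of their own arrays, so this difference holds for the RMA values only. *3OH-2* differed by -0.62 (limma adjusted p = 0.0347), *gast1* by -0.58 ± 0.11 (SE, limma adjusted p = 0.00288), *GAI* by -0.40 (limma adjusted p = 0.00579) and *20ox-1* by 0.57 (limma adjusted p = 0.0199), all under 2-fold.

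In salt-stressed leaves, where *GA2ox3* was not called, 3 of the 16 genes were (18.8%, against 4.37% of all probe sets, 1.15% higher and 3.21% lower), 1 higher and 2 lower in *res*. The medians were -0.11 for the list and -0.11 for all probe sets. The repeated normalization moved the 783 higher and 2177 lower calls over all probe sets to 1153 and 1265. *20ox-1*, an enzyme of synthesis, read 5.30, 5.40 and 5.47 in *res* and 4.22, 4.39 and 3.82 in WT, higher in *res* by 1.24 ± 0.15 (SE, limma adjusted p = 0.000109) or 2.37-fold. *gast1* read 6.54, 6.82 and 6.80 in *res* and 9.28, 9.36 and 9.40 in WT, a difference of -2.62 ± 0.11 (SE, limma adjusted p = 1.52e-08) or 6.16-fold. *RSI-1* read 1.61, 1.65 and 1.58 in *res* and 3.53, 3.61 and 3.71 in WT, a difference of -2.0 ± 0.18 (SE, limma adjusted p = 8.93e-06) or 4.01-fold. Its *res* values lay below the medians of their own arrays, so this fold holds for the RMA values only. In each of these genes the groups were apart by more than the spread of the arrays.

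*20ox-1* fell from control to salt in leaves of both genotypes. In control it read 6.67, 6.35 and 6.27 in WT and 7.0, 6.89 and 7.11 in *res*, so that it was lower in salt by 4.88-fold in WT (-2.29 ± 0.15, SE, limma adjusted p = 3.03e-07) and by 3.05-fold in *res* (-1.61 ± 0.15, SE, limma adjusted p = 2.02e-05). The interaction, 0.68 ± 0.21 (SE), missed the threshold with a limma adjusted p of 0.0896. In WT leaves this was the only 1 of the 16 genes called (6.25%, against 6.98% of all probe sets, 4.56% higher and 2.42% lower), whereas 3 were called without WT leaves control replicate 1 and 2 without WT leaves salt replicate 2. The WT leaf medians were 0.06 for the list and -0.07 for all probe sets, and the repeated normalization moved the 3089 higher and 1644 lower calls to 2414 and 1983. *GA2ox3* and *20ox-1*, an inactivating and a synthesizing enzyme, both had lower levels in salt than in control in WT leaves.

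In *res* leaves 3 of the 16 genes were called from control to salt (18.8%, against 3.4% of all probe sets, 1.84% higher and 1.56% lower), with medians of -0.01 for the list and -0.04 for all probe sets. Besides *20ox-1*, *gast1* fell by 1.22 ± 0.11 (SE, limma adjusted p = 1.47e-05), from 8.08, 7.94 and 7.80 in control. *GID1* rose by 1.84 ± 0.19 (SE, limma adjusted p = 4.74e-05) or 3.59-fold, from 2.42, 2.62 and 2.71 to 4.38, 4.27 and 4.63. In WT leaves *GID1* differed in the same direction by 0.95 ± 0.19 (SE, limma adjusted p = 0.00311), under 2-fold, and was called without WT leaves control replicate 1, where it read 3.58 against 2.75 and 2.87 on the other arrays. The *GID1* interaction was 0.89 (limma adjusted p = 0.0779), called only without WT leaves control replicate 2.

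The interaction of genotype and salt in leaves was called for 2 of the 16 genes (12.5%, against 4.12% of all probe sets, 1.66% higher and 2.46% lower), *gast1* with -2.04 ± 0.15 (SE, limma adjusted p = 5.12e-06) and *RSI-1* with -1.13 ± 0.25 (SE, limma adjusted p = 0.0167). *gast1* was 8.43, 8.59 and 8.55 in WT leaves in control and differed by 0.82 in salt, under 2-fold, while it fell in *res*. *RSI-1* read 3.18, 2.80 and 2.25 in WT leaves in control, and its interaction was -0.88 and no longer called without the lowest of these, WT leaves control replicate 3. It was also not called by the linear model without moderation (adjusted p = 0.066). The *res* leaf values of *RSI-1* lay below the medians of their arrays, so a fall with salt may not have been measurable. Its interaction therefore holds for the RMA values only.

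**Figure D3:**
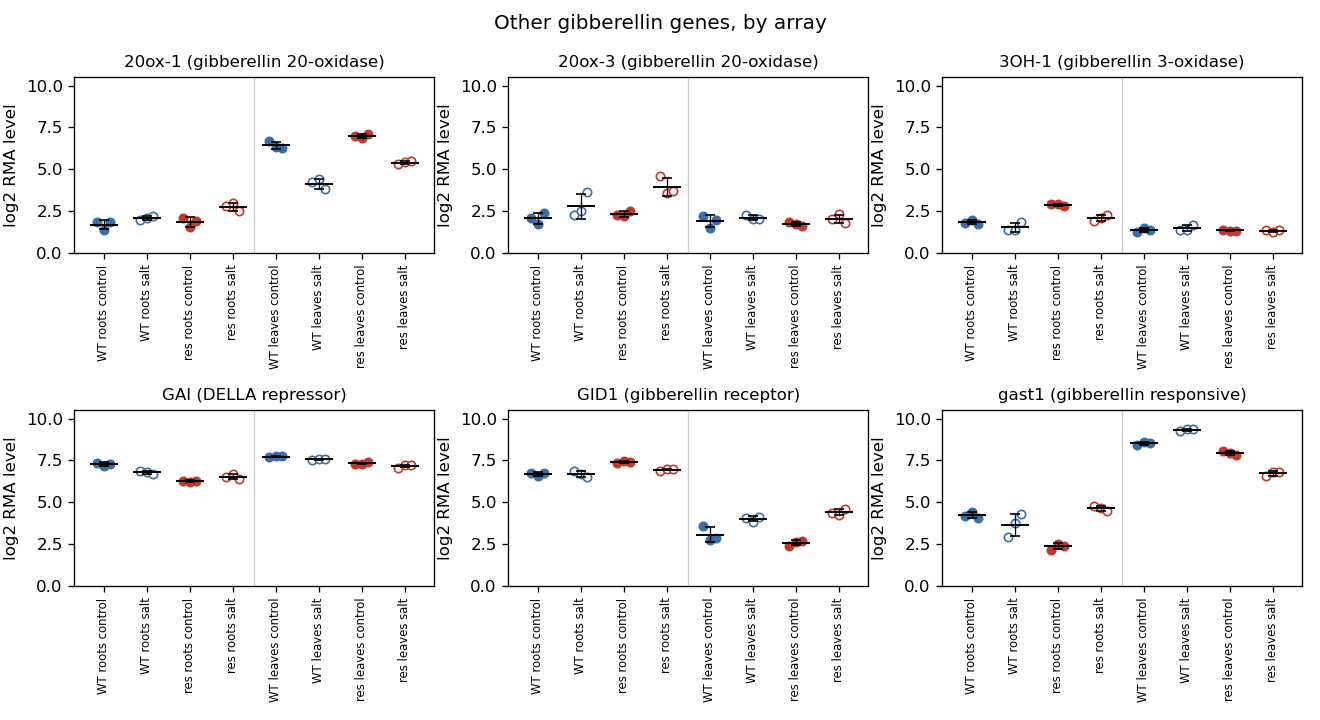
Level (y axis, log2 RMA level) of 6 other gibberellin genes in the 8 groups (x axis), with 1 point per array, blue for WT and red for *res*, filled for control and open for salt; bars give the mean and SD of 3 arrays. *20ox-1* reads 3.82 to 7.11 in leaves and is lower in salt in both genotypes, *GID1* is higher in roots than in leaves, and *gast1* is lowest in *res* roots in control, at 2.16 to 2.52.

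Between tissues, the control difference of *res* from WT was called as unequal for 4 of the 16 genes (25.0%, against 7.84% of all probe sets, 2.91% higher and 4.93% lower), from the fit of all 24 arrays. The repeated normalization moved the 1974 higher and 3341 lower calls over all probe sets to 2596 and 2645. For 3 of them the leaf difference was below the root difference, as for *GA2ox3*. These were *RSI-1* (-1.64 ± 0.22, SE, limma adjusted p = 1.1e-05), *GID1* (-1.21 ± 0.22, SE, limma adjusted p = 0.000421) and *3OH-1* (-1.05). The value of *RSI-1* rests on *res* leaf values below the medians of their arrays and holds for the RMA values only. The value of *GID1* was -0.96 and not called without WT leaves control replicate 1, and *3OH-1* was not called without WT roots control replicate 3 (-0.99), without WT leaves control replicate 2 (-0.99) or with quantile normalization repeated within tissues (-0.97). When the dimmest 1 in 3 of probe sets were left out, *3OH-1* was among them and was not tested. For *gast1* the leaf difference was above the root difference, by 1.27 ± 0.29 (SE, limma adjusted p = 0.00309). *CPS*, *spy*, *GA20ox4* and *20ox-2* were not called in any comparison. Of these, *CPS*, *GA20ox4* and *20ox-2* were among the 7 dimmest genes, with no known background, so a difference in their transcripts may not have been measurable here. By RT-qPCR the paper found a gene it names GA20OX-2 lower in control roots of *res*, and it reports the same trend on the arrays. Which probe set measures that gene could not be told from the sources used here, so the *20ox-2* values do not show it unchanged.

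The genes most like *GA2ox3* were ranked by Pearson's r over the 24 arrays, among 726 genes with a symbol other than a LOC number whose group means spanned at least 1 on the log2 scale. The 24 arrays hold 8 groups of 3 that share a condition and were normalized together, so r mainly describes the group means. The 8 highest were *aco5*, an ACC oxidase of ethylene synthesis (0.95), *ERF2*, an ethylene response factor (0.95), the *3OH-1* already described (0.92), *AAP2*, an amino acid transporter (0.91), *AADC1A*, an aromatic amino acid decarboxylase (0.91), *Ve2*, a receptor-like protein of Verticillium resistance (0.90), *XTH3*, an enzyme that modifies cell wall xyloglucan (0.90), and *WLK* (0.90). Of these 8, 7 were also among the first 8 by group means, but only 2 by Spearman's rank correlation. Over all probe sets, 300 of 20624 with such a span had an r over 0.9, so the likeness was shared by many.

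The likeness of the first genes was seen in the roots. Within the 12 root arrays r was 0.98 for *aco5*, 0.96 for *ERF2* and 0.94 for *3OH-1*, but within the 12 leaf arrays it was 0.30, 0.33 and 0.09. In leaves the group means of *aco5* and *3OH-1* lay near the bottom of the scale. A likeness of these genes there may not have been measurable. The leaf group means of *ERF2* were 4.56 to 4.86. *aco5* had group means of 7.37 and 5.45 in *res* roots in control and salt against 2.23 and 2.62 in WT roots, and of 1.35 to 1.54 in leaves, without the higher WT value in control leaves that *GA2ox3* had. *AAP2* and *AADC1A* stayed close to *GA2ox3* in both organs, with r of 0.93 and 0.92 in roots and 0.92 and 0.84 in leaves, as did *Ve2* (0.87 and 0.81), *XTH3* (0.84 and 0.83) and, less so, *WLK* (0.90 and 0.71). In leaves the *GA2ox3* mean was 3.31 in WT in control and 1.37 to 1.72 in the other groups. The leaf r therefore rest mainly on WT leaves in control, which include replicate 1, the array that stood apart. *XTH3* also read low, at 1.12 to 1.23, in the other leaf groups. At the other end, the lowest r were those of *TCP11* (-0.91), *ltpg1* (-0.91), *atpB*, the beta subunit of the chloroplast ATP synthase (-0.90), and *TCP16* (-0.86); TCP11 and TCP16 are transcription factors of the TCP family.

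**Figure D4:**
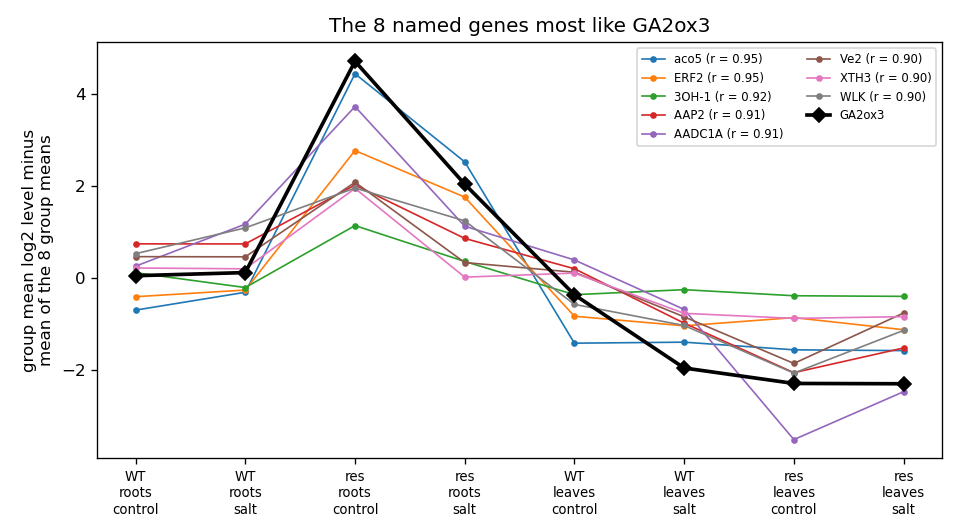
Group mean log2 level minus the mean of the 8 group means (y axis) in the 8 groups (x axis) for *GA2ox3* (black) and the 8 named genes with the highest Pearson's r over 24 arrays, given in the legend; lines join the groups for reading only. All 9 genes are highest in *res* roots in control, and in leaves *aco5*, *ERF2* and *3OH-1* differ less between groups than *GA2ox3*, *AAP2* and *AADC1A* do.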

How the data were processed

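The deposited values are log2 intensities, which the authors made from the scans with RMA (background correction, quantile normalization over arrays and 1 summary per probe set); Partek is also named, and the sources used here give no versions and name no genome build for the probe sets. They were used without further scaling. Probe sets with 1 gene symbol (23194, of which 22244 are LOC numbers) were named from the platform's annotation, updated with RefSeq; 170 had several symbols and 44431 none. Comparisons used limma 3.58.1 in R 4.3.3, with the 12 arrays of a tissue as 4 groups (24 arrays and 8 groups between tissues) and Benjamini-Hochberg adjustment over all 67795 probe sets. As in the methods, a DEG needed a 2-fold change or more with an adjusted p below 0.05, and "called", "rose" and "fell" mean this. The procedure was tested on simulated data.

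The gene, the lists and the tests were chosen with earlier results of these data known, and the older symbols 20ox and 3OH were added to the list once the annotation had been read. Named were *GA2ox3*, the other gibberellin oxidases with a symbol other than a LOC number, other listed genes where they were called or had groups that did not overlap, and the 8 genes with the highest and 4 with the lowest correlation with *GA2ox3*. The number of arrays limits the precision, and p-values measure the spread between pools of 3 plants. Alternatives were other arrays in the fit, an ordinary ANOVA (a linear model without moderation), and trended and robust moderation. Others were quantile normalization repeated within tissues, leaving out the dimmest 1 in 3 of probe sets, and a block for the replicate number. Every probe set of a gene (each had 1, so nothing changed) and each array left out in turn were also used. The methods name an ANOVA but not its model, so theirs may differ from the fit used here. No sequence or coordinate is given, and descriptions of unnamed probe sets were not used here.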

Additional observations from a re-analysis of the deposited data

Results flagged for a closer look

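In control, *GA2ox3* was higher on all *res* arrays than on all WT arrays in roots, and lower on all *res* arrays than on all WT arrays in leaves. It was 4.66 in roots and -1.93 in leaves, so that leaves minus roots came to -6.58. The difference was not tested, because the gene was chosen for it.

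Other genes stood out because a genotype difference was unequal between treatments or tissues by limma's test of the difference itself. The interaction of genotype and salt was 2.84 in roots and -2.04 in leaves for *gast1*, and -1.13 in leaves for *RSI-1*, which was -0.88 and not called without WT leaves control replicate 3. Between tissues, leaves minus roots of the control difference was -1.64 for *RSI-1*, -1.21 for *GID1*, -1.05 for *3OH-1* and 1.27 for *gast1*. *RSI-1* in *res* leaves read below the medians of the arrays, so its -1.13 and -1.64 hold for the RMA values only. Without WT leaves control replicate 1, which stood apart from its replicates, the value of *GID1* was -0.96 and not called. That of *3OH-1* was not called without WT roots control replicate 3 (-0.99), without WT leaves control replicate 2 (-0.99) or with quantile normalization repeated within tissues (-0.97). *3OH-1* was also in the dimmest 1 in 3 of probe sets. Groups of 3 arrays were not tested for single deviating arrays.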

How the results depend on the processing

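The alternatives were computed for *GA2ox3*, the list counts and the genes that were called; among these no direction changed, apart from the *GA2ox3* differences with salt in WT roots and *res* leaves, which lay near 0 and whose arrays overlapped. For genes named with a call, 123 of 125 values under the other alternatives and 149 of 156 with 1 array left out kept the call. The exceptions among the former were *RSI-1* in the leaf interaction (adjusted p = 0.066 with ordinary ANOVA) and *3OH-1* in leaves minus roots (-0.97 with quantile normalization repeated within tissues). With that normalization *GA2ox3* differed by 4.57 in control roots in place of 4.66, and 2 list genes in place of 1 were called with salt in WT leaves. In salt-stressed roots of *res* against WT, 1 list gene (*20ox-3*) in place of 0 was called with all 24 arrays in 1 fit, without the dimmest 1 in 3 probe sets and with the replicate block. In the leaf interaction ordinary ANOVA called 1 in place of 2. The causes of these shifts were not tested.

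With 1 array left out, list counts ranged from 0 to 2 for salt-stressed roots of *res* against WT and from 1 to 2 for the root interaction, both highest without WT roots salt replicate 3. They ranged from 0 to 1 for control leaves, from 1 to 3 for salt in WT leaves and from 1 to 3 for the leaf interaction. *GA2ox3* ranged from -2.83 to -2.57 in the root interaction, from 1.40 to 1.82 in the leaf interaction and from -6.82 to -6.40 for leaves minus roots.

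Same-numbered arrays deviated together with r of -0.08 to 0.06 in roots and -0.10 to 0.10 in leaves, so the numbers were not taken as pairs, and the replicate block changed the list count in no other comparison by over 1.5 times. Repeating the quantile normalization within tissues brought the medians of all probe sets for *res* against WT in control and salt-stressed leaves, -0.12 and -0.11, near 0. In salt-stressed roots it turned the split of all calls from 801 higher and 668 lower to 687 and 732. Without detection calls, levels near the bottom of the scale have no known background.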
